A study of Mus musculus with 28 samples.

Results

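The transcripts of 10 core clock genes were followed in liver and kidney RNA of mice that received nicotinamide mononucleotide (NMN), a precursor of NAD+, or water by gavage. The genes were taken from a fixed list of clock components and matched to the counts by Ensembl identifier, and all 10 were found among the 54446 genes listed in each of 28 libraries. They were Arntl (also called Bmal1, ENSMUSG00000055116), Clock (ENSMUSG00000029238), Npas2 (ENSMUSG00000026077), Per1 (ENSMUSG00000020893), Per2 (ENSMUSG00000055866), Per3 (ENSMUSG00000028957), Cry1 (ENSMUSG00000020038), Cry2 (ENSMUSG00000068742), Nr1d1 (Rev-erb alpha, ENSMUSG00000020889) and Nr1d2 (Rev-erb beta, ENSMUSG00000021775). All mice were male C57BL/6 (C57BL6J in the study's methods) at 8 weeks of age and were gavaged for 7 days. In the 1340 mg/kg/d schedule, with 1 gavage a day, 4 NMN and 4 water mice were sequenced per organ, and in the 2680 mg/kg/d schedule, with 2 gavages a day, 3 and 3. The water mice of each schedule were gavaged as often as its NMN mice, so dose and number of gavages cannot be told apart between schedules. Between 12688324 and 33872983 reads were counted on genes per library, and levels are given as CPM (counts scaled to the library total, with factors between libraries). The time of day at which tissue was collected is not given in the sources used here. Whole organs were sequenced, in which fewer cells of a type and less RNA per cell cannot be told apart.

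The clock is a feedback loop of transcription. ARNTL pairs with CLOCK or its relative NPAS2 and binds E-box sequences in the promoters of the Per, Cry and Nr1d genes, and the PER and CRY proteins then enter the nucleus and repress that pair. NR1D1 and NR1D2 are nuclear receptors that repress Arntl, Npas2 and Cry1 at ROR elements, so that Arntl and Nr1d1 transcripts peak at opposite times of day. In liver and kidney most of these transcripts swing over the day, while Clock itself changes little, and Per1 and Per2 also respond to glucocorticoids and feeding.

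The promoters of the members were searched for the letters through which the loop is known to run. Windows of 300 bases (250 before and 50 after a start site, RefSeq, GRCm38.p6) were found for 9 of the 10 members, 13 windows in all, and none was at hand for Per2. The E-box CACGTG, the related CACGTT, the D-box TTATGNAA and the ROR elements TAGGTCA and TGGGTCA were searched on both strands, and no matches in members overlapped. Stretches that hold them follow, written from 5′ to 3′ on the strand of the gene, with the matched letters in capitals. They are Cry2 at chr2:92434200-92434265 (minus strand), Per3 at chr4:151044786-151044900 (minus), Arntl at chr7:113207531-113207557 (plus), Cry1 at chr10:85185079-85185163 (minus), Per1 at chr11:69098753-69098948 (plus) and Nr1d1 at chr11:98775378-98775435 (minus). AACGTG is CACGTT read on the other strand.
Cry2: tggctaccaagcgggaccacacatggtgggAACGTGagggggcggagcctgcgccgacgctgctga
Per3: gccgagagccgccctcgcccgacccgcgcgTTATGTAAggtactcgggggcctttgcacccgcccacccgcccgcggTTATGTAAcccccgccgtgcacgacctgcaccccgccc
Arntl: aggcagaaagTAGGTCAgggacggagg
Cry1: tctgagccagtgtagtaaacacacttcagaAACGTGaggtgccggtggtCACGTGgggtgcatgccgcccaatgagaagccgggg
Per1: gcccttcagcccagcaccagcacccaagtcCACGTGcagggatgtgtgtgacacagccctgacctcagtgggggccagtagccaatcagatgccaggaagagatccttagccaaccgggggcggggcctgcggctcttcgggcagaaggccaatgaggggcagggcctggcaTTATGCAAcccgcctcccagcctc
Nr1d1: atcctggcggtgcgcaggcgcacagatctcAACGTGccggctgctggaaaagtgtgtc

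CACGTG was found in windows of Cry1 and Per1, where its first base lay at -60 and -166 from the start site, and in 7.15% of all 32851 windows. Bases before the start site have negative numbers and those from it on positive ones, and no base is numbered 0. CACGTT was found for Cry1, Cry2 and Nr1d1 at -79, -166 and -28, and in 4.68% of all windows. The D-box was found for Per1 at -24 and for Per3 at -205 and -158, and in 3.38% of all windows. TAGGTCA was found for Arntl alone, at 31, that is after the start site, and in 2.61% of all windows, and TGGGTCA in no window of a member and in 3.98% of all. A match in letters is a description and not a binding site.

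The libraries fitted their organ labels. Summed over 6 hepatocyte markers, the liver groups had means between 147190 and 227160 CPM and the kidney groups between 83.1 and 152 CPM. Summed over 5 proximal tubule markers, the kidney groups had means between 17496 and 23234 CPM and the liver groups between 5.71 and 55.8 CPM. Arntl, Cry2 and Nr1d1 are overlapped on the other strand by Gm45355, D930015M05Rik and Thra. The counting ignored strand and, in the mode used, set aside as ambiguous the reads that lay wholly within both genes, so reads from shared exons are missing from the counts of these members.

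The libraries labelled replicate 1 stood apart from the others of their group in many clock genes, in both organs, but less so in the NMN mice at 1340 mg/kg/d. There Arntl and Clock of replicate 1 lay within the range of the other libraries in both organs. Replicate 1 had the highest Npas2 of its group in 8 of 8 groups, the highest Arntl and Clock in 6 of 8 and the highest Cry1 in 6 of 8. It had the lowest Per3 in 7 of 8 groups, the lowest Nr1d1 and Nr1d2 in 6 of 8 and the lowest Per2 in 5 of 8. Less regular were Per1, lowest in 5 of 8 groups and highest in 2, and Cry2, lowest in 4 of 8 and highest in 1. Genes of the activating arm were thus mostly high in these libraries and genes of the repressing arm mostly low, with Cry1 on the side of Arntl. Nothing in the sources used here says what a replicate number stands for, and what sets these libraries apart was not tested. Values without these 8 libraries are given beside the results described most closely. The libraries were set aside after the values of these genes were seen, so leaving them out can narrow the spread of the members. Any p-value of such a fit is therefore description and not a test of its own.

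Arntl, the partner without which neither CLOCK nor NPAS2 drives the loop, was measured at 27.9, 5.23, 1.92 and 1.25 CPM in replicates 1 to 4 of the liver water mice of the 1340 mg/kg/d schedule. In the kidneys of the same group it was 22.0, 4.48, 4.78 and 3.89 CPM. The first library lay 9.98 times above the mean of the others in the liver and 5.03 times above it in the kidney. At 2680 mg/kg/d the water mice had 35.8, 4.69 and 10.2 CPM in the liver and 22.6, 2.68 and 3.25 CPM in the kidney. With NMN at that dose, Arntl was 45.6, 8.45 and 20.7 CPM in the liver and 15.7, 2.87 and 4.80 CPM in the kidney. Replicate 1 was the highest in all of these groups. In the NMN mice of the 1340 mg/kg/d schedule the liver had 19.3, 19.3, 20.2 and 3.51 CPM, so that replicate 4 was low and the other libraries were alike, and the kidney had 5.35, 5.93, 6.33 and 3.76 CPM with no library apart.

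Npas2, which can replace CLOCK as the partner of ARNTL, varied most. In the liver water mice of the 1340 mg/kg/d schedule it was 14.6, 0.709, 0.457 and 0.179 CPM, and in liver water mice at 2680 mg/kg/d 22.2, 1.25 and 1.23 CPM. Replicate 1 was 32.7 and 17.9 times the mean of the others. The smallest such fold, in the kidneys of NMN mice at 1340 mg/kg/d, was 1.59. The lowest Npas2 counts were 2 reads in a library, in both liver groups of the 1340 mg/kg/d schedule, so the low liver values carry a large counting error.

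Nr1d1 ran the other way. It was 5.40, 122, 102 and 107 CPM in the liver water mice of the 1340 mg/kg/d schedule, where replicate 1 lay 20.5 times below the mean of the others, and 46.8, 213 and 208 CPM at 2680 mg/kg/d. Nr1d2, which represses the same genes, was 7.79, 93.9, 150.4 and 91.7 CPM in the first of these groups and 14.3, 86.1 and 101 CPM in the second. Per3, a target of the D-box factors, was 1.87, 10.6, 49.8 and 19.9 CPM in the first group, and replicate 1 was again the lowest. Dbp, the D-box activator and a strong target of the ARNTL pair, was 0.831 CPM in replicate 1 of that group and 125 CPM or more in the other libraries of it.

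**Figure D1:**
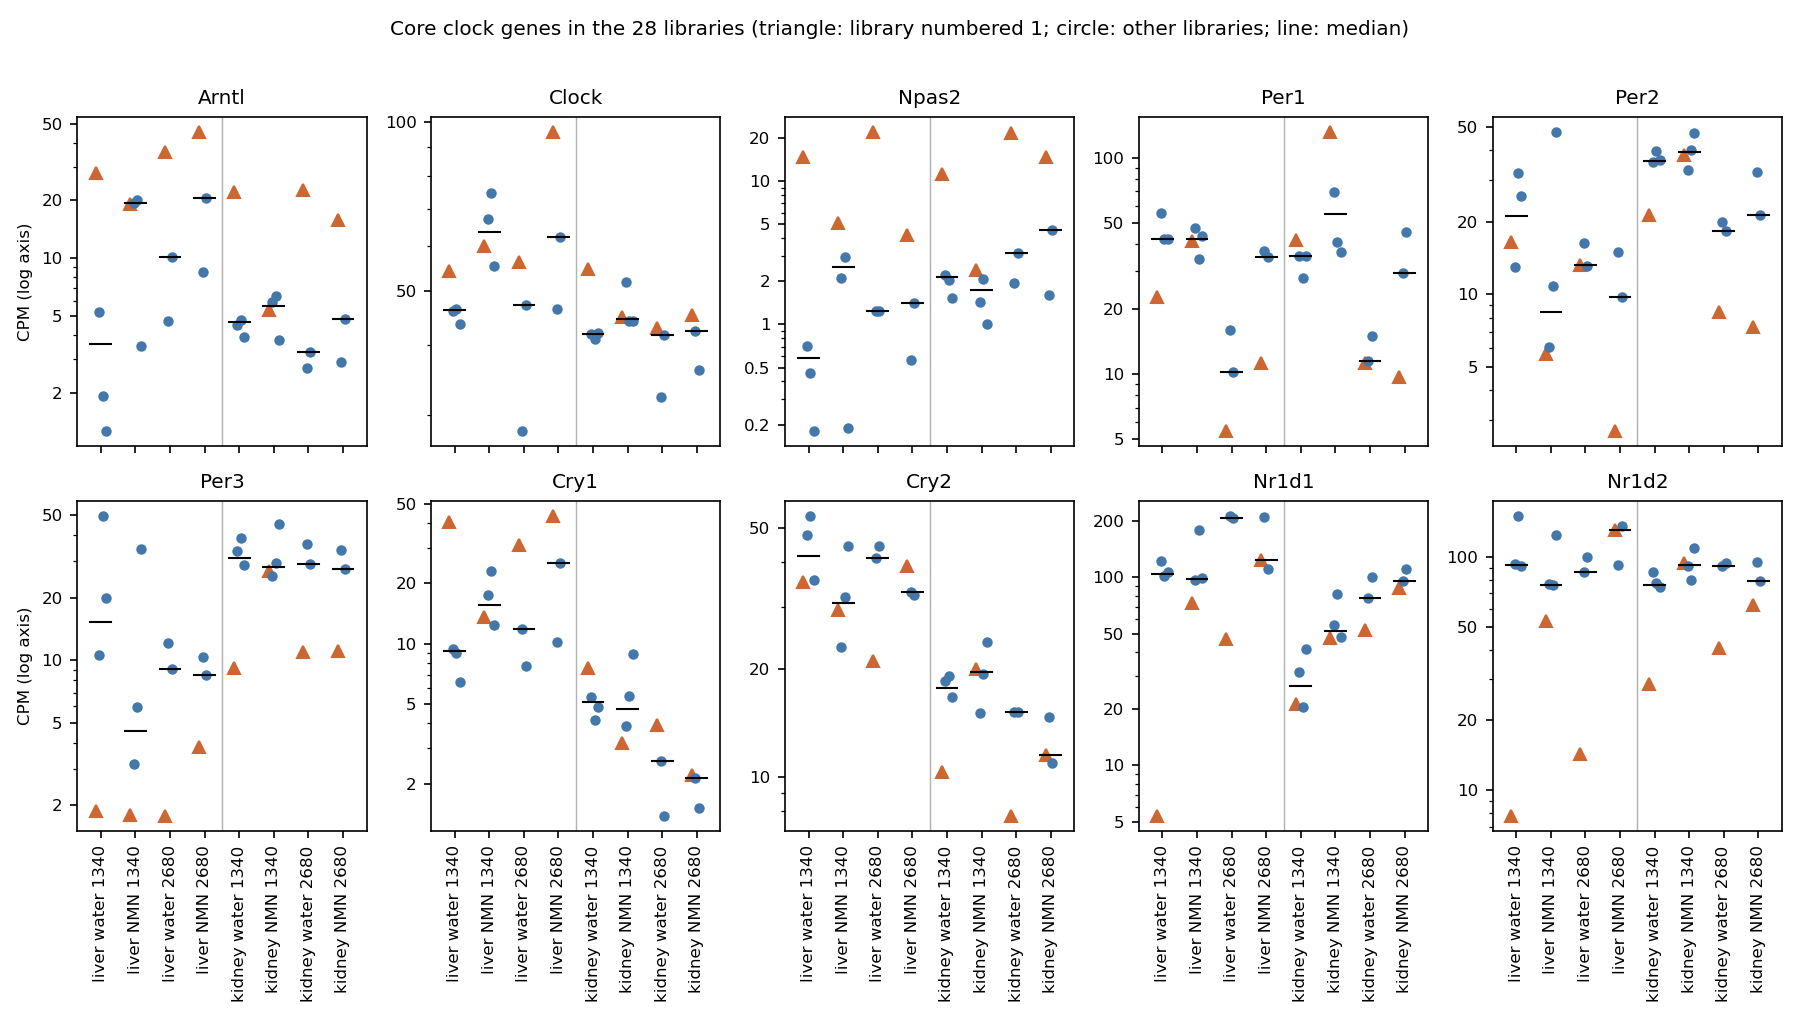
CPM of each core clock gene in every library, on a log axis, for the 8 groups of organ, treatment and schedule. Triangles are libraries labelled replicate 1, circles the other libraries, and lines the group medians. The triangles lie highest for Npas2 in 8 of 8 groups and lowest for Per3 in 7 of 8.

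The opposition of Arntl and Nr1d1 was summed up as the log2 ratio of their CPM in one library. It was highest in replicate 1 in 8 of 8 groups, and ran from -3.16 to 2.37 in the 8 libraries of that number and from -6.42 to -2.09 in the other 20. The ranges thus overlapped across groups although replicate 1 led within each group. Arntl exceeded Nr1d1 in 2 libraries, replicate 1 of the liver and of the kidney water mice at 1340 mg/kg/d. A library with another number also stood apart. Replicate 4 of the liver NMN mice at 1340 mg/kg/d had the highest Per2 (47.6 CPM against 5.62 to 10.9) and the lowest Npas2 (0.190 CPM) of its group, and 12.8% of its reads fell on no gene.

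**Figure D2:**
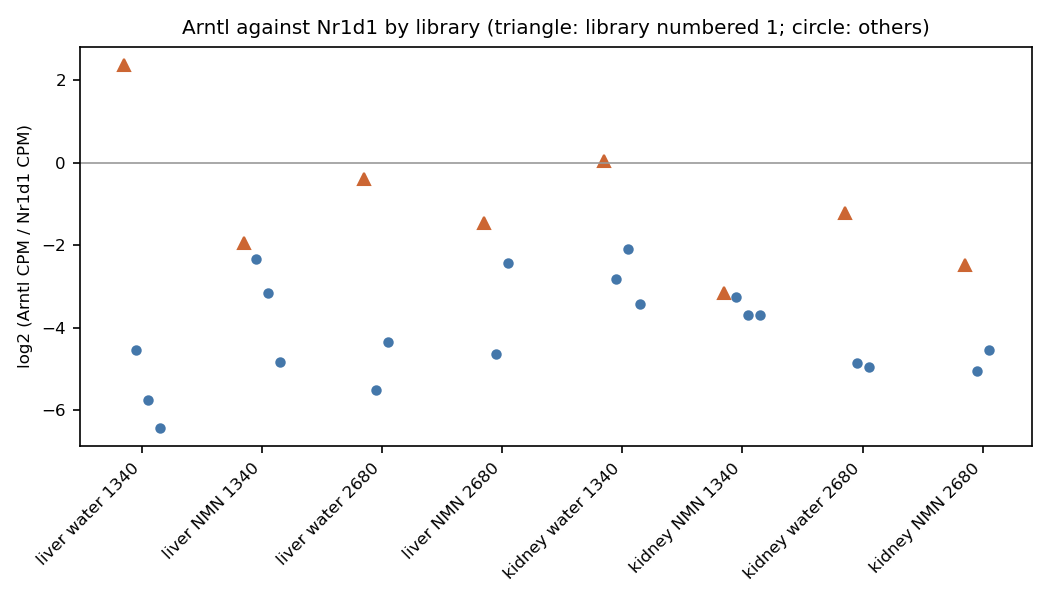
Log2 ratio of Arntl CPM to Nr1d1 CPM in each of the 28 libraries, by group. Triangles are libraries labelled replicate 1 and circles the others. The triangle is the highest point in each of the 8 groups, and only 2 triangles lie above 0.

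The spread within groups ordered the members alike in both organs at the top and the bottom. As the SD of log2 CPM around the group mean, it was 2.19 for Npas2, 1.66 for Per3 and 1.54 for Arntl in the liver, and 1.32 for Npas2, 1.15 for Arntl and 0.799 for Per3 in the kidney. The median over all genes was 0.334 among 13412 in the liver and 0.218 among 15989 in the kidney. Npas2 thus lay at percentile 99.8 of all genes in the liver and 98.2 in the kidney. Clock had the smallest spread of the 10 in each organ, 0.371 and 0.171, at percentiles 55.8 and 36.9. Nr1d1 lay at percentile 95.3 in the liver and 74.4 in the kidney, and this difference was not tested.

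Levels were compared between genes per kb of exon. In the water mice Nr1d1 and Nr1d2 had the highest mean levels in both organs, 37.4 ± 24.9 and 14.4 ± 9.32 CPM per kb in the liver and 16.04 ± 9.79 and 13.0 ± 4.74 CPM per kb in the kidney (SD, n = 7 libraries). In the liver Cry2, Cry1, Per1, Clock, Per2, Arntl, Per3 and Npas2 followed, from 6.31 down to 1.21 CPM per kb. In the kidney the order below the Nr1d genes was Per1, Per2, Clock, Per3, Cry2, Npas2, Cry1 and Arntl, from 4.52 down to 1.21 CPM per kb. None of the 9 pairs of neighbours in the liver order differed by more than the larger SD of the pair, and in the kidney order only Nr1d2 and Per1 did. The ranges of all 9 neighbour pairs overlapped in both organs, so the order is given by the means only. The order also turned between the schedules. In the kidney Nr1d2 lay above Nr1d1 at 1340 mg/kg/d (12.3 ± 4.78 and 9.31 ± 3.21 CPM per kb, SD, n = 4) and below it at 2680 mg/kg/d (13.97 ± 5.55 and 24.995 ± 7.82, n = 3). Per1, at 6.22 and 2.24 CPM per kb in the kidney, was above Per2 (5.67) in the first schedule and below it (2.67) in the second, and in the liver, at 7.23 and 1.88 CPM per kb, it went from the third place to the eighth.

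The first question was whether NMN moved the clock genes. In each of the 4 comparisons of NMN with water, 0 of the 10 members had an adjusted p under 0.05 by the quasi-likelihood test of edgeR. Over all genes tested, 0.0161% passed in the liver at 1340 mg/kg/d, 7.08% in the liver at 2680 mg/kg/d, 0.120% in the kidney at 1340 mg/kg/d and 0.400% in the kidney at 2680 mg/kg/d. At an unadjusted p under 0.05, 1 member passed in each of the first 3 comparisons and 0 in the last, against 6.86%, 24.6%, 8.94% and 11.1% of all genes. DESeq2 called 1 member, Per1, in the liver at 2680 mg/kg/d (6.87% of all genes) and 0 in the other 3 (0.326%, 0.601% and 0.877%). The median absolute log2 fold change of the members was 0.41, 0.66, 0.38 and 0.33 in these comparisons, beside 0.17, 0.32, 0.14 and 0.13 over all genes. Their signed medians were -0.004, 0.28, 0.23 and 0.01.

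Among the activators, Clock was the member whose liver groups did not overlap at 1340 mg/kg/d. It was 54.1, 45.9, 46.4 and 43.5 CPM with water and 60.0, 67.0, 74.8 and 55.3 CPM with NMN. The lowest NMN library was above the highest water library, which 1.78% of all genes tested also showed in that direction. The log2 fold change was 0.44 (SE 0.14, adjusted p = 0.465 from edgeR). At 2680 mg/kg/d liver Clock was 56.1, 28.1 and 47.2 CPM with water and 95.96, 46.4 and 62.4 CPM with NMN, and the groups overlapped. The log2 fold change there was 0.66 (SE 0.33, adjusted p = 0.266 from edgeR). It was 0.65 without a filter (adjusted p = 0.00904 from edgeR, where 8.47% of all genes passed) and 0.64 under the replicate block (adjusted p = 0.0338, where 9.24% did). NMN and water mice are different animals and their libraries did not pair by number, so the block has no basis in the design here. Kidney Clock lay between 41.0 and 54.6 CPM with water and between 44.1 and 51.7 CPM with NMN at 1340 mg/kg/d. It lay between 32.3 and 43.0 CPM with water and between 36.1 and 45.3 CPM with NMN at 2680 mg/kg/d.

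For Arntl and Npas2 the fold change turned on replicate 1. Arntl had a log2 fold change of 0.79 (SE 1.04, adjusted p = 0.925 from edgeR) in the liver at 1340 mg/kg/d, and of 2.36 (SE 0.78, adjusted p = 0.488) without the libraries numbered 1. In the liver at 2680 mg/kg/d it was 0.60 with them and 0.94 without. In the kidney it was -0.71 at 1340 mg/kg/d and -0.31 at 2680 mg/kg/d, and 0.29 and 0.38 without them, with the sign reversed. Npas2 had -0.61 and -1.93 in the liver at the lower and the higher dose and -1.30 and -0.38 in the kidney. Without the libraries numbered 1 it was -0.36 in the liver at 2680 mg/kg/d and -0.35 and 0.30 in the kidney at the lower and the higher dose, and in the liver at 1340 mg/kg/d it was no longer expressed highly enough to be tested. No adjusted p of either gene was under 0.05 with or without them.

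Among the repressors, Per1 had the highest log2 fold change of the members in the liver at 2680 mg/kg/d. It was 5.43, 16.1 and 10.3 CPM with water and 11.3, 37.2 and 35.0 CPM with NMN. The groups overlapped, since replicate 1 was the lowest of each, and replicates 2 and 3 of the NMN mice lay above every water mouse. The log2 fold change was 1.37 (SE 0.51, adjusted p = 0.153 from edgeR), and 1.41 (SE 0.25, adjusted p = 0.0129) without the libraries numbered 1, where 3.89% of all genes passed. Since those libraries were chosen by the values of these same genes, the smaller SE and p of that fit are description only. Of 7 genes that respond to fasting, 1 was called higher there with all libraries and 6 were not called (median 1.67). Of 7 that respond to glucocorticoids, Per1 included, 0 were called (median 0.39). Of 6 hepatocyte markers 2 were called lower and 4 not called, and the pancreas marker Cela1 was lower, where 7.08% of all genes passed. Their part in the Per1 values was not tested. In the kidney at 2680 mg/kg/d Per1 was 11.3, 11.5 and 15.0 CPM with water and 9.68, 29.2 and 45.3 CPM with NMN. Its log2 fold change was 1.16 (SE 0.63, adjusted p = 0.589), and 1.48 without the libraries numbered 1 (adjusted p = 0.0566), where 1.29% of genes and 0 members passed. At 1340 mg/kg/d Per1 lay between 22.6 and 55.8 CPM with water and between 33.9 and 47.4 CPM with NMN in the liver. In the kidney it was 41.9, 35.2, 27.8 and 35.2 CPM with water and 132, 69.7, 41.0 and 36.8 CPM with NMN, a log2 fold change of 0.99 (adjusted p = 0.579 from edgeR) with all libraries and of 0.60 (adjusted p = 0.504) without those numbered 1.

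Per2 and Per3 had overlapping groups in every comparison with water. In the liver at 1340 mg/kg/d Per2 was 16.5, 12.9, 31.9 and 25.7 CPM with water and 5.62, 6.02, 10.9 and 47.6 CPM with NMN. All NMN libraries but replicate 4 lay below every water library. Cry1, which represses the ARNTL pair most strongly and is itself held down by the NR1D receptors, was 40.3, 9.40, 8.95 and 6.45 CPM with water there and 13.6, 17.6, 23.0 and 12.4 CPM with NMN. Its log2 fold change was 0.05 with all libraries and 1.11 (SE 0.26, adjusted p = 0.145 from edgeR) without those numbered 1. Cry2 lay between 35.1 and 54.0 CPM with water and between 23.2 and 44.4 CPM with NMN in the same comparison.

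Nr1d1 was the member whose kidney groups did not overlap at 1340 mg/kg/d. It was 21.3, 31.6, 20.3 and 41.4 CPM with water and 47.7, 56.0, 82.2 and 48.2 CPM with NMN, and 2.34% of all genes tested were also higher in every NMN library. Its adjusted p was 0.319 in edgeR with all libraries and 0.411 without those numbered 1. At 2680 mg/kg/d kidney Nr1d1 was 52.5, 77.7 and 101 CPM with water and 87.5, 95.3 and 111 CPM with NMN, and the groups overlapped. At that dose 0 of the 10 members had groups without overlap in either organ, against 29.3% of genes in the liver and 17.2% in the kidney. Nr1d2 in the kidney at 1340 mg/kg/d was 28.7, 86.6, 77.1 and 74.2 CPM with water and 94.6, 91.3, 79.6 and 109 CPM with NMN.

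**Figure D3:**
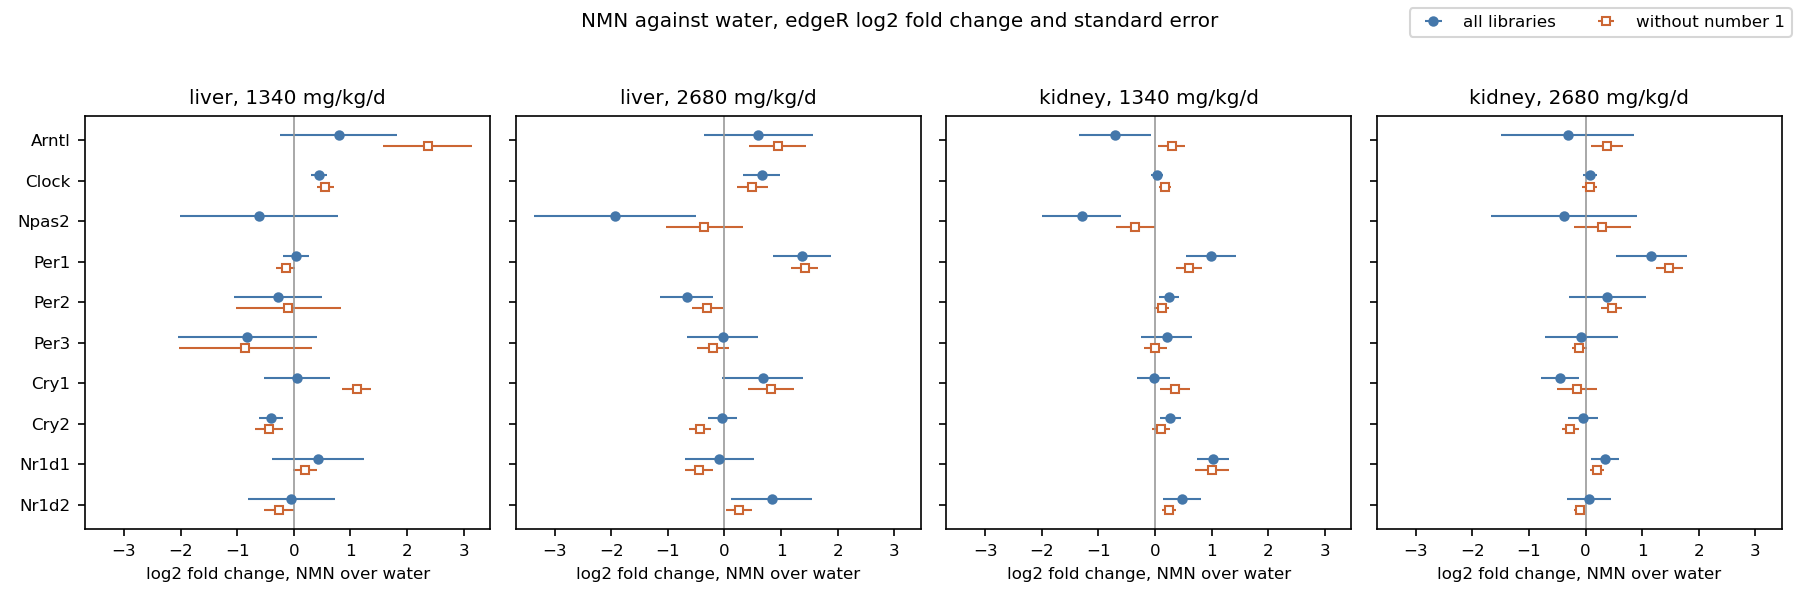
Log2 fold change of NMN over water for each core clock gene in the 4 comparisons, from edgeR, with bars of 1 SE. Filled circles are fits with all libraries and open squares fits without the libraries numbered 1, where Npas2 in the liver at 1340 mg/kg/d was not tested. Arntl in the kidney moves from -0.71 to 0.29 and from -0.31 to 0.38 between the fits.

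Whether the effect of NMN differed between schedules or organs was tested with interaction terms. Again 0 of 10 members passed an adjusted p under 0.05 in edgeR, between schedules in the liver (0.0746% of all genes) or the kidney (0.00625%) and between organs at 1340 mg/kg/d (0%) or 2680 mg/kg/d (2.65%). DESeq2 also called 0 members in each, where it called 0.408%, 0.0344%, 0.0937% and 4.42% of all genes, in the same order. Unadjusted, 1 member passed between schedules in the liver (8.60% of all genes), 0 in the kidney (4.62%), 2 between organs at the lower dose (5.79%) and 0 at the higher (19.4%). Per1 in the liver had an effect larger by 1.35 on the log2 scale at 2680 mg/kg/d (SE 0.58, adjusted p = 0.529 from edgeR). Clock had an effect larger by 0.39 and Cry2 one smaller by 0.70 in the liver than in the kidney at 1340 mg/kg/d (adjusted p = 0.831 for both). Without the libraries numbered 1, again 0 of 10 members passed in each of the 4, where 0.0955%, 0.0123%, 0.0759% and 1.18% of all genes did, but single values moved. The difference for Per1 between schedules in the liver was then 1.57 (SE 0.30, adjusted p = 0.0759 from edgeR), and that for Cry1 there went from 0.63 to -0.28. Npas2 between organs at 1340 mg/kg/d went from 0.69 to 2.33 (adjusted p = 0.637).

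The water mice of the 2 schedules were compared next, since the treated groups were each set against their own. Per1 was the member that fell in both organs. In the liver it was 22.6, 55.8, 42.3 and 42.1 CPM in the 1340 mg/kg/d schedule and 5.43, 16.1 and 10.3 CPM in the 2680 mg/kg/d schedule, and the groups did not overlap, as for 8.35% of all genes in that direction. The log2 fold change was -1.97 (SE 0.40, adjusted p = 0.0275 from edgeR), and Per1 was the 1 member of 10 called, where 4.44% of all genes passed and 2.99% were lower. The call was lost without replicate 3 or 4 of the first group (adjusted p = 0.0791 and 0.0806) or replicate 3 of the second (0.124). The log2 fold changes in these fits were -1.96, -1.97 and -1.96, about as large as with all libraries. Without the libraries numbered 1, 2 members passed with 4.20% of all genes, Per1 and, at 0.91 and higher, Nr1d1 (adjusted p = 0.00598 from edgeR). That choice of libraries was made from the clock genes themselves, so these calls are description only. In the kidney Per1 was 41.9, 35.2, 27.8 and 35.2 CPM in the first schedule and 11.3, 11.5 and 15.0 CPM in the second, a log2 fold change of -1.51 (SE 0.14, adjusted p = 6.45e-06). With all 14 kidney libraries in the fit its log2 fold change was also -1.51 (SE 0.56), with an adjusted p of 0.0965 from edgeR.

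In the kidney 3 of 10 members passed between the schedules, where 18.3% of all genes did, 10.7% lower and 7.55% higher. Besides Per1, Cry1 was lower, at 7.53, 5.39, 4.16 and 4.83 CPM in the 1340 mg/kg/d schedule and 3.91, 2.58 and 1.38 CPM in the 2680 mg/kg/d schedule. Its log2 fold change was -1.08 (SE 0.30, adjusted p = 0.0222 from edgeR). The call was lost without replicate 2 (-1.06, adjusted p = 0.0802) or 3 (-0.78, adjusted p = 0.0935) of the second group. Nr1d1 was higher, at 21.3, 31.6, 20.3 and 41.4 CPM against 52.5, 77.7 and 101 CPM, a log2 fold change of 1.39 (SE 0.34, adjusted p = 0.0435). Over the 7 fits with 1 library left out its log2 fold change ran from 1.15 to 1.62. Its call was lost in 5 of the 7 fits with 1 library left out (adjusted p up to 0.115), all but those without replicate 4 of the first group or replicate 1 of the second. It was also lost without all libraries numbered 1 (adjusted p = 0.0697) and without a filter on low counts (0.0802). Per2 did not pass, at 21.4, 35.5, 39.6 and 36.4 CPM against 8.41, 20.0 and 18.4 CPM, with a log2 fold change of -1.13 (SE 0.37, adjusted p = 0.0936). DESeq2 called it (-1.11, adjusted p = 0.0311) beside the other 3, so 4 members with 10.7% of all genes, and edgeR did without replicate 1 of the second group (adjusted p = 0.0356). Without the libraries numbered 1, a choice made from these same genes, Per2 had -0.98 (adjusted p = 1.85e-05 from edgeR). In that fit 3 members, Per1, Per2 and Cry1, passed with 16.7% of all genes. The groups of Per1, Per2, Cry1 and Nr1d1 did not overlap, 4 of 10 members against 29.7% of all genes.

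**Figure D4:**
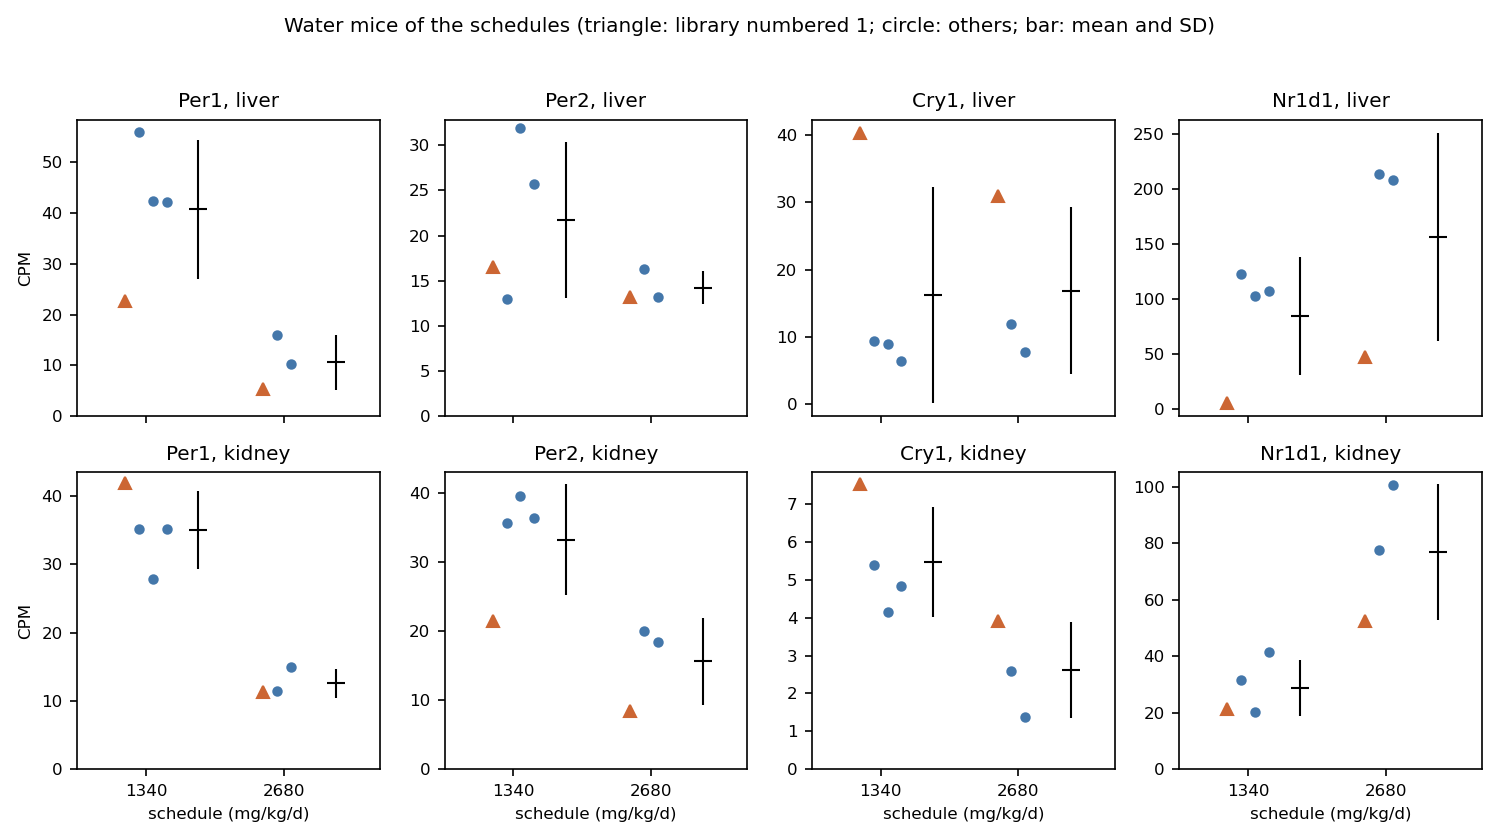
CPM of Per1, Per2, Cry1 and Nr1d1 in the water mice of the 1340 and the 2680 mg/kg/d schedule, in liver (top) and kidney (bottom). Points are libraries (triangles for replicate 1) and bars the mean and SD. Per1 of the second schedule lies below every library of the first in both organs.

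Other measures moved between the schedules too. The share of counted reads on mitochondrial genes was 8.92% to 10.6% in the 8 kidney libraries at 1340 mg/kg/d and 19.8% to 21.6% in the 6 at 2680 mg/kg/d. The 3 adipocyte markers Adipoq, Plin1 and Cidec were all called higher in the kidney, with summed means of 9.29 CPM (4.25 to 19.3) and 71.6 CPM (55.4 to 87.2). The most abundant was Cidec at 3.23 CPM in the first group and Adipoq at 26.2 CPM in the second, and none of the 3 was at 0. The 6 hepatocyte markers summed to 152 and 83.4 CPM in the kidney, 5 of them called lower. In the liver, 2 of 4 tested proximal tubule markers were called lower, with summed means of 52.5 and 5.71 CPM. So were 2 of 2 thick ascending limb markers, where 2.99% of all genes were lower. In the kidney, 2 of 3 endothelial markers were called higher and 0 lower, and 0 of 5 proximal tubule markers higher and 2 lower. Over all genes 7.55% were higher and 10.7% lower in the kidney. Of 7 genes that respond to glucocorticoids, Per1 included, 3 were called lower in the kidney, where 10.7% of all genes were, 0 higher and 4 not called, with a median log2 fold change of -0.15. Beside Per1 the called genes were Tsc22d3 (-1.64) and Sgk1 (-1.14). In the liver Per1 was the 1 of the 7 called, and the median was -0.94. Of 7 genes that respond to fasting, Pck1, the enzyme that commits carbon to glucose synthesis, was called lower in both organs (-1.97 in the liver and -1.002 in the kidney), and Igfbp1, which binds insulin-like growth factors, higher in the kidney (1.46). In the liver the other 6 and in the kidney 4 of the 6 tested were not called, and the medians were 0.15 and 0.43. The part of these genes and measures in the difference of the clock genes was not tested, and the schedule cannot be told apart from any handling that went with it.

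Between organs, the water mice differed in 3 of 10 members, where 76.3% of all genes passed. Cry1, Cry2 and Nr1d1 were higher in the liver, and 34.4% of all genes were. Cry2 was 35.1, 47.8, 54.0 and 35.6 CPM in the liver and 10.3, 18.6, 19.2 and 16.8 CPM in the kidney at 1340 mg/kg/d. At 2680 mg/kg/d it was 21.1, 41.1 and 44.5 CPM against 7.78, 15.2 and 15.2 CPM, so each liver library lay above every kidney library of its schedule. The log2 fold change of Cry2 was 1.499 (SE 0.20, adjusted p = 3.35e-06 from edgeR), that of Cry1 2.08 (SE 0.49, adjusted p = 0.00175) and that of Nr1d1 1.38 (SE 0.54, adjusted p = 0.0350). Within the schedules Cry2 had 1.43 and 1.51, Cry1 1.59 and 2.69, and Nr1d1 1.58 and 1.05, the last with adjusted p of 0.124 and 0.201. With 1 library left out, the log2 fold change of Nr1d1 ran from 1.24 to 1.57. The Nr1d1 call was lost in 10 of 14 edgeR fits with 1 library left out (adjusted p up to 0.0684), without a filter (0.0643) and with at least 10 counts in every library (0.0551). Of the fits with 1 library left out, it held in those without liver replicate 1 of either schedule, kidney replicate 4 at 1340 mg/kg/d or kidney replicate 3 at 2680 mg/kg/d.

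The other members of the organ comparison depended on the fit. With the replicate number as a block, Nr1d1 had 1.06 (adjusted p = 0.0956 from edgeR) and Per3 passed, at -1.24 (SE 0.34, adjusted p = 0.009996), with 3 members and 75.5% of all genes called. Without the libraries numbered 1, 7 members passed, where 71.8% of genes did. Nr1d1 was then at 1.64, Cry2 at 1.45, Cry1 at 1.41, Per1 at 0.37 and Nr1d2 at 0.36, and Npas2 at -1.53 and Per2 at -0.50. Scaled by library totals only, the median of all genes moved from -0.15 to -1.13, and 6 members passed, where 86.6% of genes did. Cry1 and Cry2 were still higher in the liver, at 1.10 and 0.53, while Per1, Clock, Per2 and Per3 were lower, at -0.88, -0.79, -1.33 and -1.87. Of the members, only Cry1 and Cry2 were called higher in the liver in each of these 4 fits.

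Relations between members across mice were computed on log2 CPM as deviations from the group mean, over 14 libraries per organ, with 12 relations tested by exact permutation within groups. Arntl and Npas2 rose and fell together, with Pearson r = 0.958 and Spearman rho = 0.960 in the liver (permutation p = 0.000289 and 0.00053, adjusted over the 12 relations 0.00318 and 0.00521) and r = 0.977 and rho = 0.956 in the kidney (permutation p = 0.00053 and 0.000868, adjusted 0.00318 and 0.00521). Arntl and Per2 ran opposite, with r = -0.674 and rho = -0.758 in the liver (permutation p = 0.0069 and 0.00492, adjusted 0.0207 and 0.0148) and r = -0.908 and rho = -0.886 in the kidney (permutation p = 0.00203 and 0.00313, adjusted 0.0081 and 0.0125). These were the 4 relations past the threshold. Arntl and Nr1d1 had r = -0.738 and rho = -0.560 in the liver (permutation p = 0.0332 and 0.0556, adjusted 0.0664 and 0.0952) and r = -0.528 and rho = -0.481 in the kidney (adjusted permutation p = 0.193 and 0.206). Nr1d1 with Nr1d2 had r = 0.904 and 0.465 in liver and kidney, Nr1d1 with Cry1 -0.782 and -0.385, and Per1 with Per2 0.402 and 0.392, with adjusted permutation p between 0.0664 and 0.486.

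The libraries numbered 1 lay at the high end of Arntl in most groups, and with 4 of them per organ they were too few for a value of their own. Without the 2 libraries farthest from the median, Arntl with Npas2 kept r = 0.924 in the liver and 0.954 in the kidney (adjusted permutation p = 0.0382 for both). The rho of this pair was 0.937 and 0.930, no longer past the threshold (adjusted permutation p = 0.0625 for both). Arntl with Per2 had r = -0.709 and -0.925 (adjusted permutation p = 0.0679 and 0.0729). Without the libraries numbered 1, over 10 libraries, Arntl with Npas2 had 0.914 and 0.932 (adjusted permutation p = 0.0417 and 0.0833) and Arntl with Per2 -0.873 and -0.788 (adjusted permutation p = 0.0833 and 0.528, neither past the threshold). The sign of Arntl with Nr1d1 turned to 0.101 and 0.292, and that of Nr1d1 with Nr1d2 to -0.556 and -0.535. Per1 with Per2 in the kidney turned to -0.927 (adjusted permutation p = 0.0417). The opposition of Arntl and Nr1d1 and the joint course of the Nr1d genes thus rested on the libraries numbered 1. Within each schedule alone, Arntl with Npas2 had r = 0.968 in the liver and 0.958 in the kidney at 1340 mg/kg/d and 0.936 and 0.986 at 2680 mg/kg/d (adjusted permutation p between 0.0833 and 0.115). Arntl with Per2 had -0.664 and -0.916 at the lower dose and -0.699 and -0.929 at the higher (adjusted permutation p between 0.0833 and 0.156). Arntl with Nr1d1 differed more between the schedules in the kidney, at -0.355 and -0.780, than in the liver, at -0.721 and -0.820, and this was not tested. None of the 12 passed in either schedule. With 36 permutations at 2680 mg/kg/d the smallest p is 0.0278, which a single relation cannot carry past the adjustment, while the 576 at 1340 mg/kg/d do not set that limit.

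**Figure D5:**
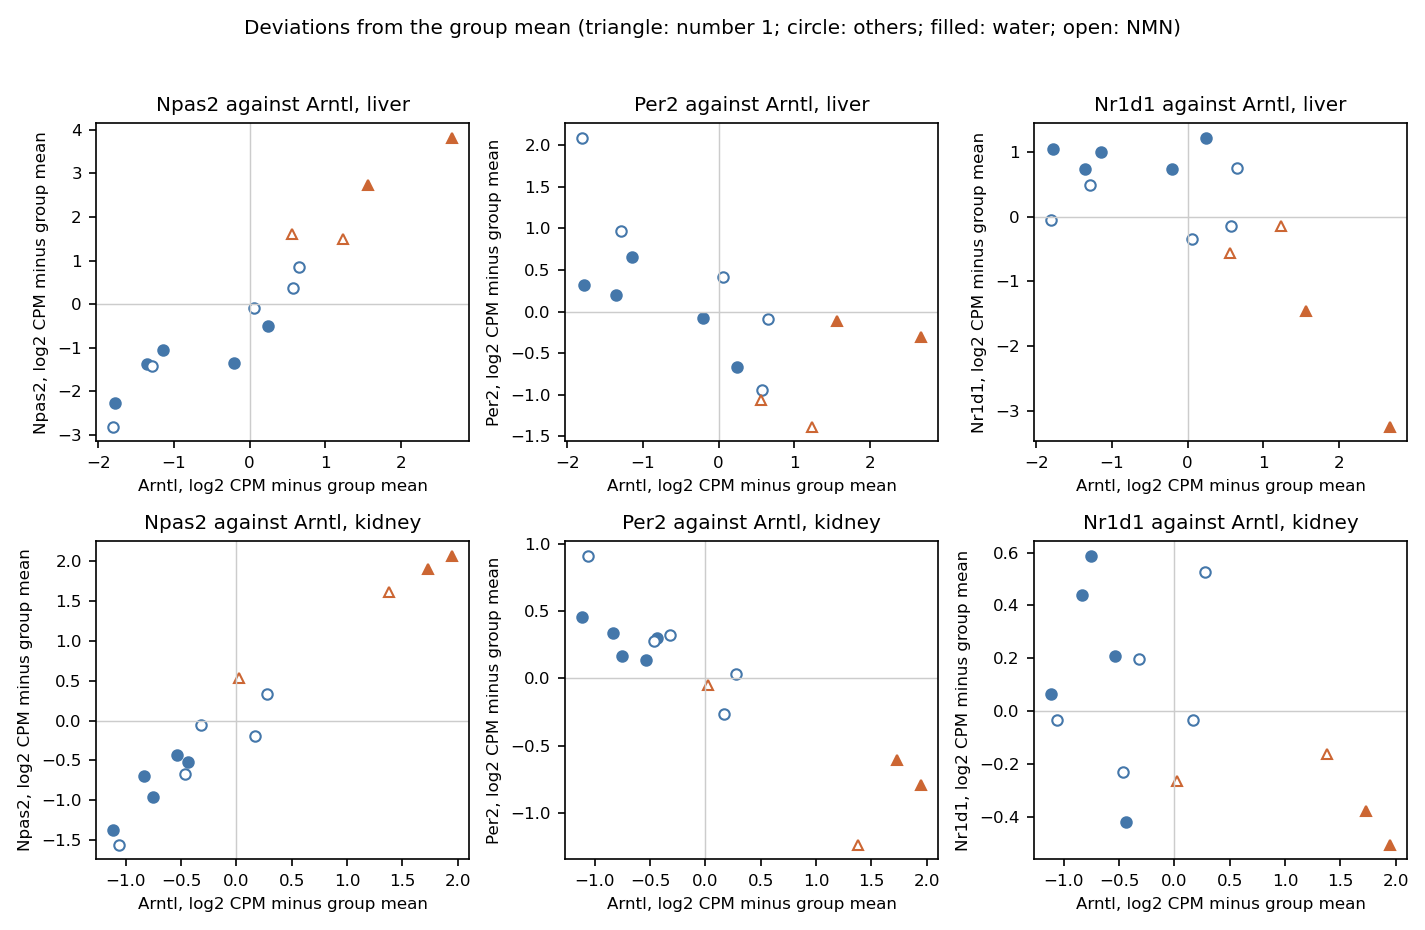
Pairs of core clock genes across the 14 libraries of each organ, as deviations of log2 CPM from the group mean. Filled points are water and open points NMN mice, and triangles are libraries labelled replicate 1. Arntl and Npas2 lie along a rising line (r = 0.958 and 0.977) and Arntl and Per2 along a falling one (r = -0.674 and -0.908).

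The genes whose pattern was most like that of a member were listed by Pearson r of the same deviations over 14 libraries, which share groups and depth, so no p is given. Genes with a mean under 5 CPM were not compared, which left out Npas2 in the liver, although its r with Arntl of 0.958 lay above that of all liver genes compared but Insig2. In the kidney, among 10320 genes, Npas2 was the most like Arntl (0.977), followed by Ppard (0.942), Arhgef10l, Ypel2 and Nr2f6. The most opposite were Dbp (-0.975), Tef (-0.972), Per3 (-0.954), Ciart (-0.949) and Nr1d2 (-0.934), where Dbp and Tef are D-box activators and Ciart is a repressor of the loop. In the liver, among 9342 genes, Insig2 (0.971), Chka (0.940), Cldn1, Nfil3 (0.932), the D-box repressor, and St5 were most like Arntl, and Ubr7 (-0.952), Ciart (-0.946), Pitpnc1, Gnat1 and Slc38a3 most opposite. For Nr1d1 no other member was among the 5 highest or lowest genes in either organ. Cpt1a (0.961), the carnitine palmitoyltransferase of fatty acid oxidation, was the most like it in the liver and Actg1 (-0.933) the most opposite, and in the kidney these were Ddx47 (0.905) and Kctd5 (-0.922).

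Of 25 other genes of the clock, 24 were tested for NMN in the liver at 1340 mg/kg/d, 23 in the liver at 2680 mg/kg/d and 25 in the kidney at each dose. In the liver at 2680 mg/kg/d the median log2 fold change was 0.26 over the list and 0.004 over all genes. Nampt, the rate-limiting enzyme of NAD+ salvage and a target of the ARNTL pair, was 44.8, 49.1 and 61.4 CPM with water and 87.2, 78.2 and 92.4 CPM with NMN (log2 fold change 0.73, adjusted p = 0.0303 from edgeR). Every NMN library lay above every water library for Nampt, and 29.3% of all genes had groups without overlap there, in either direction. In the liver at 1340 mg/kg/d and the kidney at 2680 mg/kg/d, 0 were called, where 0.0161% and 0.400% of all genes were. In the kidney at 1340 mg/kg/d Bhlhe40 alone was called, where 0.120% of all genes were.

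Between the water mice of the schedules, 0 of these genes were higher and 2 of 23 lower in the liver, Noct and Rora, where 2.99% of all genes were lower. Noct, a gene with a strong daily rhythm in the liver, lay between 51.3 and 68.2 CPM in the 1340 mg/kg/d schedule and at 3.49, 10.6 and 7.24 CPM in the 2680 mg/kg/d schedule. Its log2 fold change was -3.01 in the liver (adjusted p = 0.000897 from edgeR) and -1.08 in the kidney. Rora, an activator at ROR elements, was also lower in both organs, with log2 fold changes of -0.77 and -0.44. Csnk1d and Usp2 were lower and Nampt higher in the kidney, where 10.7% of all genes were lower and 7.55% higher.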

How the data were processed

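Poly(A) RNA of 14 liver and 14 kidney samples was sequenced. Alignment by the authors used STAR, and HTSeq-count (intersection-strict, strand ignored) gave the raw counts per gene that were deposited. Symbols came from GENCODE M21 (GRCm38), which held 53229 of the 54446 identifiers with the same version, 1180 with another version and 37 not at all. The build the counts were made on could not be matched to it. Rows that name no gene were left out of totals and tests. Beside the counted reads, reads on no gene came to between 3.27% and 12.8%, ambiguous reads to between 1.77% and 5.10% and reads with several alignments to between 10.06% and 19.95%. Library totals ran from 12688324 to 33872983. The libraries carried no stated molecular identifiers, so reads need not be separate molecules and depth covers counting error only.

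The tests were run with edgeR 4.0.16 in R 4.3.3 (filterByExpr, TMM factors, robust quasi-likelihood test) and adjusted by the Benjamini-Hochberg method over all genes tested in a comparison. NMN and water, schedules in water mice and organs in water mice were compared, and NMN by schedule or organ as interactions over the libraries concerned. A gene was called at an adjusted p under 0.05, and all 10 members were reported in every comparison. The SE of a log2 fold change is its size over the square root of the F statistic. Plotted and printed CPM used factors over all 28 libraries. Relations between members were tested over 20736 permutations within groups in Python 3.11.15.

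The members and gene lists were chosen with earlier results of these data known. Other genes of the clock were named where called, and some of them are not reported here. The genes most like a member were the 5 with the highest and the 5 with the lowest r among those with a mean of at least 5 CPM.

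Same-numbered liver and kidney libraries of water mice deviated together (r between 0.135 and 0.346 at 1340 mg/kg/d and between 0.103 and 0.251 at 2680 mg/kg/d, each highest with its own number), so the number served as a block there. Nothing states that they come from the same mouse, and if they do not, the block pairs samples that share only a number. NMN and water libraries did not pair by number. As an alternative the block was still fitted for NMN against water and for the interactions, where it pairs different mice.

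The alternatives were DESeq2 1.42.0, its size factors, a minimum of 10 counts in every library or no filter, the replicate block, all libraries of an organ in 1 fit, a stricter threshold and each library left out in turn. Leaving out all libraries numbered 1, and library totals without TMM factors between organs, were added after the data were seen. In simulated counts with 200 genes changed 4-fold, edgeR recovered 89% and 86.5% for NMN in the liver at the lower and higher dose (5 and 16 false calls, 12449 and 12477 genes) and 92.5% and 95% in the kidney (10 and 18 false calls, 14972 and 15245 genes). It recovered 87% and 94.5% between schedules, 92.5% between organs and between 60% and 84% of interactions. The changed genes were drawn at random from all genes tested. Npas2, Per3 and Arntl lay at percentiles 99.8, 98.3 and 97.3 of the spread in the liver. The shares recovered thus do not apply to members that vary so much, and say little about the power to call them.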

Additional observations from a re-analysis of the deposited data

Results flagged for a closer look

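In each group of 4 libraries, the highest or lowest value of a member was compared with the rest by its gap to the nearest library over the range of the group (Dixon's test). In 11 of 40 such groups the ratio passed the critical value, where chance alone gives about 2 if the groups were independent and the values normally distributed. The 11 values came from 4 libraries, and 7 of them from 2 libraries labelled replicate 1. The members move together within a library, so these are not 11 separate results. In replicate 1 of the liver water mice at 1340 mg/kg/d, Arntl was 27.9 CPM, Npas2 14.6 CPM and Cry1 40.3 CPM, each far above the other libraries, and Nr1d1 was far below them at 5.40 CPM. In replicate 1 of the kidney water mice of that schedule, Arntl was 22.0 CPM and Npas2 11.3 CPM, again far above the others. Clock was 54.6 CPM there against 41.0 to 42.1 CPM in the others, a small difference beside a narrow range.

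The other 4 values came from NMN mice at 1340 mg/kg/d. In replicate 4 of the liver, Per2 was 47.6 CPM and Per3 34.5 CPM, above the others, and Arntl was below them at 3.51 CPM. Replicate 2 of the kidney had 51.7 CPM of Clock, above the others. What sets these libraries apart was not tested.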

How the results depend on the processing

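Over 762 values of members under alternatives that kept or replaced whole sets of libraries, 702 kept their direction and side of the threshold, 28 reversed, 23 gained the call and 9 lost it. Over 1120 values of members in fits with 1 library left out, 962 kept both, 132 reversed, 6 gained the call and 20 lost it. For NMN in the liver at 2680 mg/kg/d, where 0 members passed, DESeq2 and the fit without libraries numbered 1 called 1 (Per1), no filter 2 (Clock and Per1, with 8.47% of genes) and the replicate block 3 (Arntl, Clock and Per1, with 9.24%). The NMN and water numbers share only a number, and 2 of 3 liver libraries correlated best with their own. Leaving out 1 library gave 0 to 1 there, in the kidney at 2680 mg/kg/d and between schedules in the liver, where 2 passed without libraries numbered 1. In both NMN comparisons the gained call was Per1 without NMN replicate 1 (adjusted p = 0.0309 in the liver and 0.0147 in the kidney, edgeR). Between schedules in the kidney the range was 1 to 4, with 1 left without replicate 2 or 3 at 2680 mg/kg/d. Between organs 7 passed without libraries numbered 1 and 6 with library totals. Without a filter the interactions called 1 member between schedules in the kidney (Nr1d1, with 0.365% of genes) and 5 between organs at 2680 mg/kg/d (Arntl, Npas2, Per2, Cry1 and Nr1d2, with 4.69%). The cause was not tested. The block was not fitted between schedules, where nothing states that a number means the same in both.

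Signs turned in these fits. For NMN, Npas2 in the liver at 1340 mg/kg/d had a log2 fold change of 0.56 under the replicate block. Without libraries numbered 1, Arntl in the kidney had 0.29 and 0.38 at the lower and higher dose and Npas2 0.30 at the higher. Between organs, Nr1d2 had -0.15 under the block, -0.14 at 2680 mg/kg/d alone and -0.77 with library totals, Per1 -0.065 with at least 10 counts in every library, -0.22 at 2680 mg/kg/d alone and -0.88 with totals, and Clock -0.79 with totals. With 1 library left out, Arntl for NMN ran from -0.23 to 1.76 in the liver at 2680 mg/kg/d, from -0.96 to 0.29 in the kidney at 1340 mg/kg/d, from -1.31 to 1.38 there at 2680 mg/kg/d and from -0.80 to 2.04 between organs at that dose. Npas2 ran from -1.15 to 2.49 and from -3.07 to 0.76 in the liver, from -1.50 to 1.42 in the kidney at 2680 mg/kg/d and from -3.39 to 1.10 between organs there, and Cry1 in the liver at 1340 mg/kg/d from -0.22 to 1.02. In the organ comparison Npas2 ran from -1.11 to 0.59, Nr1d2 from -0.050 to 0.40 and Per1 from -0.034 to 0.22.

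Of 12 relations, 4 passed over all libraries and 0 within either schedule. Without the 2 farthest libraries 2 passed by Pearson r (Arntl with Npas2 in both organs), but not by Spearman rho (adjusted permutation p = 0.0625 for both). Without those numbered 1, 2 passed (Arntl with Npas2 in the liver and Per1 with Per2 in the kidney, the latter with its sign turned). With group means left in, the same 4 as over all libraries passed by r. By rho, of these only Arntl with Npas2 in the liver did (adjusted permutation p = 0.00694). Arntl with Per2 in the liver had 0.092, and Arntl with Npas2 and with Per2 in the kidney had 0.211 and 0.68. Fewer libraries allow fewer permutations, 36 at 2680 mg/kg/d and 144 without those numbered 1 against 20736, which limits the p they can reach. Arntl with Per2 in the kidney went from r = -0.908 to -0.788 without those numbered 1, with a permutation p of 0.264 where the smallest possible is 0.00694. Per1 with Per2 in the kidney turned to r = -0.461 at 1340 mg/kg/d. Without libraries numbered 1, Arntl with Nr1d1 turned to 0.101 in the liver and 0.292 in the kidney, Nr1d1 with Nr1d2 to -0.556 and -0.535, and Per1 with Per2 to -0.0651 and -0.927.

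Depth limits Npas2 in the liver, with as few as 2 reads in a library.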
